A study of Mus musculus with 23 samples.

Results

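The genes described here encode metabotropic glutamate receptors, the G protein-coupled receptors for glutamate. The set was given by name and held Grm2, Grm3, Grm4, Grm5, Grm7 and Grm8, which are 6 of the 45706 genes in the count table. All 6 passed the filter on low counts, and each had at least 138 reads in every library. Polyadenylated RNA was sequenced from 3 neuron populations of the mouse hippocampus, which the sample names call CamK, Grik and SST. CamK and Grik libraries are labelled as excitatory pyramidal cells, and the study's design names the CA1 and CA3 fields for its excitatory populations. SST libraries are labelled as somatostatin-positive interneurons. Libraries were labelled either wild type (WT) or conditional knockout (cKO) of SLM2, the splicing regulator encoded by Khdrbs3. There were 4 libraries in each of the CamK WT, Grik WT, Grik cKO, SST WT and SST cKO groups and 3 in CamK cKO. Not given in the sources used here were age, sex, strain, the Cre drivers, the deleted exons and the method of isolating the cells. The labels do not say whether replicates are separate animals, so p-values measure the spread between these samples, which may be technical.

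Metabotropic glutamate receptors fall into groups by sequence and signalling. Grm5 belongs to group I, which couples through Gq to phospholipase C and calcium release and lies mainly at the edge of the postsynaptic density. Grm2 and Grm3 form group II, and Grm4, Grm7 and Grm8 belong to group III. Both of these groups couple through Gi/o to inhibition of adenylyl cyclase and of calcium channels, and many of their members act on presynaptic terminals to reduce transmitter release. In the hippocampus, Grm2 is well known from dentate granule cells and their mossy fibres, Grm3 also from astrocytes, and Grm7 from terminals that contact somatostatin interneurons.

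Between 87612006 and 112993538 reads per library were assigned to genes, with a median of 91378465. Marker genes were checked first. The summed level of 4 pyramidal markers was 7294 to 8466 counts per 1000000 reads (CPM) in CamK WT libraries, 8359 to 9879 in Grik WT libraries and 874 to 1019 in the SST WT libraries. The 4 markers of SST interneurons, of which Gad1, Gad2 and Slc32a1 mark GABAergic cells in general, summed to 5486 to 6443 CPM in SST WT, where CamK WT had 45.1 to 143 and Grik WT 67.7 to 89.3. Sst itself varied widely among the SST WT libraries, at 1720, 159, 554 and 1557 CPM, and was 3.87 to 10.6 CPM in the WT libraries of the excitatory populations. The 3 CA1 markers were high in CamK WT, at 625 to 905 CPM against 44.9 to 62.2 in Grik WT, and the 3 CA3 markers were high in Grik WT, at 336 to 411 CPM against 76.3 to 90.3 in CamK WT. Khdrbs3, the targeted gene, had a mean of 278 CPM in libraries labelled CamK cKO against 373 in CamK WT, 414 in those labelled Grik cKO against 336 in Grik WT, and 93.8 in those labelled SST cKO against 130.2 in SST WT. By edgeR the adjusted p was 0.114 for CamK, 0.499 for Grik and 0.0309 for SST, and the Grik difference ran against the label. The SST call was lost with limma-voom (adjusted p = 0.0614), in the edgeR fit of SST alone (0.954), and without SST WT 1 or 5 or SST cKO 3, 4 or 5 (0.0722 to 0.155, log2 fold change -0.50 to -0.42). DESeq2 and limma-voom also called the lower level in CamK (adjusted p = 0.00293 and 0.0207), and limma-voom the higher level in Grik (adjusted p = 0.0158). Counts cover whole genes, so reads outside the deleted exons can remain, and genotypes are therefore given below as the libraries were labelled.

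The upstream sequences of the receptor genes are shown first because 4 of the 6 genes could be matched to a promoter entry of RefSeq (GRCm38.p6) and all 4 differed in level between the populations. Each run holds the 250 bases before the annotated transcription start, 5′ to 3′ on the gene's own strand, and capitals mark GC boxes (GGGCGG on either strand). Grm2 lies at chr9:106656110-106656359 on the minus strand, Grm3 at chr5:9725353-9725602 on the minus strand, Grm7 at chr6:110645348-110645597 on the plus strand and Grm8 at chr6:28135147-28135396 on the minus strand.
Grm2: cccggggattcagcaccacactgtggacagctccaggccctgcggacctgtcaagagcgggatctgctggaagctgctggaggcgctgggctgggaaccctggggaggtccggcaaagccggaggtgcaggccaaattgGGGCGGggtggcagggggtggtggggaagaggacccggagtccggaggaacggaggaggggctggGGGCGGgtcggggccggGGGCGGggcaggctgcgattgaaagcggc
Grm3: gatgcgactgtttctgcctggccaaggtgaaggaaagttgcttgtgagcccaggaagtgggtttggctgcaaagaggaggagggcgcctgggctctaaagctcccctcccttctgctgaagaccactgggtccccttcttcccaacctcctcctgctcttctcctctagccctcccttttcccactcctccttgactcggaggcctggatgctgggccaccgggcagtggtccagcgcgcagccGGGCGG
Grm7: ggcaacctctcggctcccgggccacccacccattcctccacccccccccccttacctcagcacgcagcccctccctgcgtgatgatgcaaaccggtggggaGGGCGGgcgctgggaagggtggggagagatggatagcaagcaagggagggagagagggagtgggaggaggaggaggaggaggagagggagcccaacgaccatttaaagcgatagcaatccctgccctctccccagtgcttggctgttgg
Grm8: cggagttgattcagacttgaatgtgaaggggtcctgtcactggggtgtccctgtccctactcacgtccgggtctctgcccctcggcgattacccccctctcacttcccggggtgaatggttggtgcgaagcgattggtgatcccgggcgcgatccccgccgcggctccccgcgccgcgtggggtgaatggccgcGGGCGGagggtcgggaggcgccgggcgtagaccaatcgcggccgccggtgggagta

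All 4 windows held a GC box, with 3 in Grm2 and 1 in each of Grm3, Grm7 and Grm8. A GC box was found in 32.7% of all 32851 promoter windows of this length. The windows were 62.4 to 71.2% G or C, against a median of 52.4% over all windows. CCAAT, searched on both strands, occurred once in Grm2 and at 2 places in Grm8, and 33.8% of all windows held it. The E-box (CANNTG) was absent from all 4 windows and present in 66.2% of all windows. Neither TATAAA, found in 12.4% of all windows, nor the cAMP response element TGACGTCA, found in 1.55%, occurred in the 4 windows. These are matches of letters and were not tested as binding sites.

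The first question was how the receptor genes differ between the 3 populations in libraries labelled WT. Grm2, Grm3, Grm4, Grm7 and Grm8 each differed between at least 1 pair of populations in edgeR's quasi-likelihood test at an adjusted p of 0.05, with no overlap between the libraries of those groups. Grm5 was nearly level. Grm2 was highest in CamK, intermediate in Grik and lowest in SST, while Grm7 was highest in Grik. Grm4 and Grm8 shared another arrangement, with CamK and SST high and Grik low. Between CamK WT and Grik WT, 4 receptor genes were higher and 1 lower in CamK, where 42% of all 18823 genes tested passed (20.9% higher and 21.1% lower). Between CamK WT and SST WT, 3 were higher and 1 lower in CamK, against 60.1% of all genes (29.5% higher and 30.5% lower), and between Grik WT and SST WT, 2 were higher and 3 lower in Grik, against 57.3% (28.1% higher and 29.2% lower). Libraries did not overlap for 5 receptor genes in the first comparison, 3 in the second and 4 in the last, where 38.3, 53.9 and 52.3% of all genes did not overlap. In bulk samples, fewer cells of a type and less RNA per cell cannot be told apart.

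**Figure D1:**
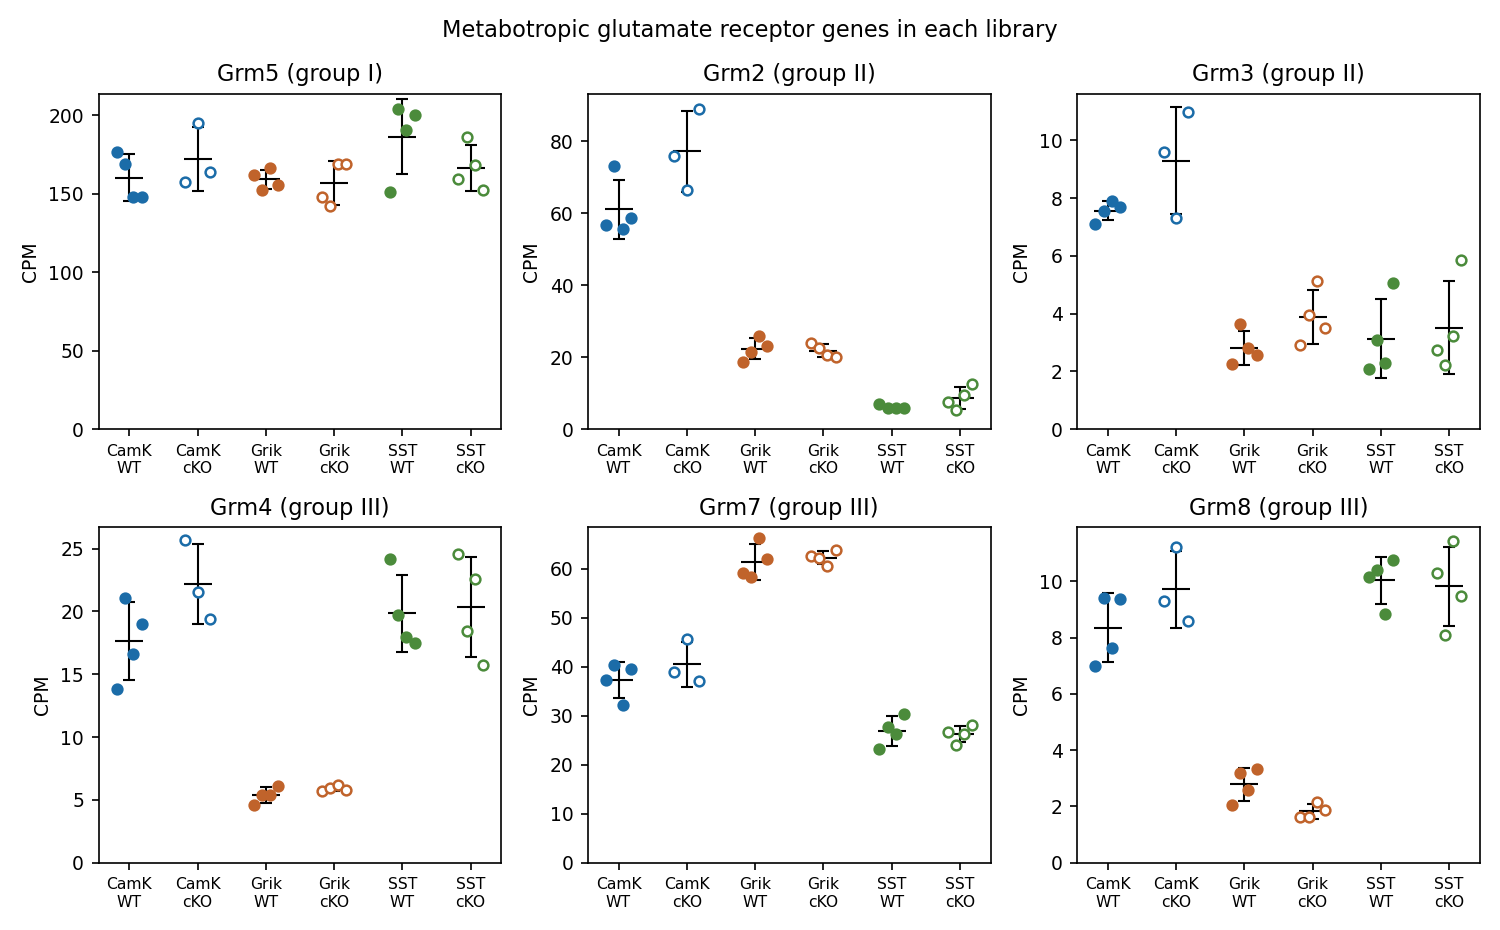
CPM (vertical axis) of each receptor gene in every library of the 6 groups (horizontal axis), with filled points for libraries labelled WT, open points for those labelled cKO, lines for group means and bars for the SD. Grm2 steps down from CamK through Grik to SST, Grm7 peaks in Grik, Grm4 and Grm8 are low in Grik, and the Grm5 groups all lie between 142 and 204 CPM.

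Grm5, the group I receptor of this set, lies at chr7:87584168-88134907 on the plus strand (ENSMUSG00000049583, positions from GENCODE M21, GRCm38). Its level was 177, 169, 148 and 148 CPM in the CamK WT libraries, 162, 153, 166 and 156 in the Grik WT libraries and 151, 204, 190.4 and 199.9 in the SST WT libraries. The means were 160.2 ± 14.8, 159 ± 6.201 and 186 ± 24.0 CPM (SD, n = 4 each). Libraries of all 3 populations overlapped, and the SST library with 151 CPM lay below most pyramidal libraries. CamK WT and Grik WT differed by a log2 fold change of 0.01 (with an SE of 0.09, adjusted p = 0.952 by edgeR), with a 95% interval from -0.19 to 0.20. Against SST WT, the log2 fold change was -0.22 for CamK (SE 0.09, adjusted p = 0.0458 by edgeR) and -0.23 for Grik (SE 0.09, adjusted p = 0.0395 by edgeR). Both calls were near the threshold and were lost when single libraries were left out, including some outside the groups compared. The CamK call was lost (edgeR adjusted p from 0.0514 to 0.161, log2 fold change from -0.24 to -0.17) when any 1 of 16 libraries was left out, namely CamK WT 3, 4 or 5, CamK cKO 6, any of the 8 Grik libraries, SST WT 2, 3 or 5, or SST cKO 5. The Grik call was lost (edgeR adjusted p from 0.0514 to 0.148, log2 fold change from -0.24 to -0.18) without any 1 of 12 libraries, namely CamK WT 3 or 4, Grik WT 3, 4, 5 or 6, Grik cKO 1, 3 or 4, or SST WT 2, 3 or 5.

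Grm2, a group II receptor of glutamatergic terminals and dendrites, lies at chr9:106643095-106656082 on the minus strand (ENSMUSG00000023192). It had the widest spread of the 6 genes between populations. The CamK WT libraries had 56.8, 73.2, 55.6 and 58.5 CPM, the Grik WT libraries 18.8, 21.6, 25.8 and 22.99, and the SST WT libraries 7.06, 5.86, 5.85 and 5.81. The 3 groups were fully separated, and 1 library each of CamK and SST stood above its replicates. The means were 61.0 ± 8.19, 22.3 ± 2.91 and 6.14 ± 0.612 CPM (SD, n = 4 each). CamK WT exceeded Grik WT by 2.74-fold (log2 1.45, SE 0.17, adjusted p = 2.96e-07 by edgeR) and SST WT by 9.92-fold (log2 3.31, SE 0.18, adjusted p = 3.45e-13 by edgeR). Grik WT exceeded SST WT by 3.62-fold (log2 1.86, SE 0.17, adjusted p = 3.39e-09 by edgeR).

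Because Grm2 is abundant in dentate granule cells, their markers are given beside it. None of the 4 granule cell markers was at 0 in any library. Their sum ranged over 163 to 405 CPM for CamK WT, 196 to 233 for Grik WT and 293 to 317 for SST WT. Most of the SST WT sum was Stxbp6, with a mean of 272 CPM there against 104 in CamK WT. In CamK WT against SST WT, 3 of the 4 were higher and 1 lower by the edgeR test, and in CamK WT against Grik WT 1 was higher and none lower. Prox1, the granule cell transcription factor, had a mean of 92.4 CPM for CamK WT, 82.4 for Grik WT and 18.6 for SST WT. C1ql2 and Dsp were also low in SST WT, with means of 3.45 and 8.99 CPM against 45.4 and 40.8 in CamK WT. In SST WT the 4 pyramidal markers stood at 3.78 to 16.8% of their mean in the excitatory WT libraries, and Grm2 stood at 14.8%. The part of granule or pyramidal cell RNA in the Grm2 difference was not tested.

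Grm3, the other group II receptor, lies at chr5:9485541-9725170 on the minus strand (ENSMUSG00000003974). The CamK WT libraries had 7.11, 7.54, 7.88 and 7.70 CPM, the Grik WT libraries 2.24, 3.65, 2.80 and 2.55, and the SST WT libraries 2.10, 3.09, 2.29 and 5.06. Every CamK WT library was above every Grik and SST WT library, and Grik and SST overlapped. The means were 7.56 ± 0.330, 2.81 ± 0.603 and 3.14 ± 1.35 CPM (SD, n = 4 each). CamK WT was 2.69-fold above Grik WT (log2 1.43, SE 0.27, adjusted p = 0.000194 by edgeR) and 2.41-fold above SST WT (log2 1.27, SE 0.27, adjusted p = 0.000324 by edgeR). Grik WT against SST WT gave a log2 fold change of -0.16 (with an SE of 0.27, adjusted p = 0.654 by edgeR), with a 95% interval from -0.73 to 0.42. Grm3 is also made by astrocytes, and the 6 astrocyte markers, none at 0 in any library, summed to 184 to 265 CPM in SST WT, where Grik WT had 73.9 to 99.1 and CamK WT 69.4 to 89.1. In CamK WT against SST WT, 5 of them were lower and 1 higher, and against Grik WT 4 were lower and 1 higher. The part of astrocyte RNA in the Grm3 values was not tested.

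Grm7, a low-affinity group III receptor of presynaptic active zones, lies at chr6:110645581-111567230 on the plus strand (ENSMUSG00000056755). Grik WT libraries had 59.1, 58.2, 66.3 and 61.9 CPM, CamK WT libraries 37.2, 40.4, 32.2 and 39.4, and SST WT libraries 23.1, 27.7, 26.3 and 30.3. The populations did not overlap, in the order Grik, CamK, SST. The means were 61.4 ± 3.66, 37.3 ± 3.67 and 26.9 ± 3.02 CPM (SD, n = 4 each). Grik WT was 1.65-fold above CamK WT (log2 fold change of CamK against Grik -0.72, SE 0.09, adjusted p = 2.26e-07 by edgeR) and 2.29-fold above SST WT (log2 1.19, SE 0.09, adjusted p = 1.01e-11 by edgeR). CamK WT was 1.39-fold above SST WT (log2 0.47, SE 0.09, adjusted p = 3.55e-05 by edgeR). An antisense gene, Gm20387, shares exon sequence with Grm7. It had 109 to 243 reads per library, against 2138 to 5794 for Grm7, and without a stated strand setting reads of the pair cannot be told apart. Oligodendrocyte markers were also highest in Grik WT, where the 4 summed to 630 to 846 CPM, against 138 to 205 for CamK WT and 252 to 561 for SST WT. The 2 precursor markers summed to 9.41 to 15.1 CPM in Grik WT, against 0.587 to 1.88 and 5.55 to 7.92. In Grik WT against SST WT, 3 of the 4 and 1 of the 2 were higher by edgeR, and in CamK WT against Grik WT 3 and 2 were lower. None was at 0 in any library, and the part of such RNA in the Grm7 difference was not tested.

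Grm4, a group III receptor that inhibits transmitter release, lies at chr17:27422387-27521403 on the minus strand (ENSMUSG00000063239). The CamK WT libraries had 13.8, 21.1, 16.6 and 19.0 CPM, the Grik WT libraries 4.58, 5.42, 5.402 and 6.09, and the SST WT libraries 24.2, 19.7, 17.96 and 17.5. CamK and SST overlapped, and every Grik library was below them. The means were 17.6 ± 3.12, 5.37 ± 0.619 and 19.8 ± 3.05 CPM (SD, n = 4 each). CamK WT was 3.28-fold above Grik WT (log2 1.71, SE 0.14, adjusted p = 6.67e-10 by edgeR), and SST WT was 3.69-fold above Grik WT (log2 fold change of Grik against SST -1.88, SE 0.14, adjusted p = 2.96e-11 by edgeR). CamK WT and SST WT differed by -0.17 on the log2 scale (SE 0.14, adjusted p = 0.293 by edgeR), with a 95% interval from -0.46 to 0.12.

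Grm8, the least abundant group III member here and a presynaptic receptor with high affinity for glutamate, lies at chr6:27275119-28135178 on the minus strand (ENSMUSG00000024211). The CamK WT libraries held 6.99, 9.40, 7.65 and 9.37 CPM, the Grik WT libraries 2.06, 3.17, 2.58 and 3.33, and the SST WT libraries 10.2, 10.4, 8.83 and 10.7. Grik libraries were again below all others, and CamK and SST overlapped. The means were 8.35 ± 1.23, 2.78 ± 0.582 and 10.03 ± 0.834 CPM (SD, n = 4 each). CamK WT was 2.999-fold above Grik WT (log2 1.58, SE 0.15, adjusted p = 6.14e-09 by edgeR), and SST WT was 3.60-fold above Grik WT (log2 fold change of Grik against SST -1.85, SE 0.15, adjusted p = 1.14e-10 by edgeR). CamK WT against SST WT gave -0.26 (SE 0.14, adjusted p = 0.118 by edgeR), with a 95% interval from -0.57 to 0.04.

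Grm4 and Grm8 thus ranked the populations alike in their means. Per kilobase of exon, the level of Grm4 was 3.27 to 3.71 times that of Grm8 in the 4 CamK WT libraries, 2.83 to 3.68 times that level for Grik WT and 2.70 to 3.94 times for SST WT. The 3 ranges overlapped. In libraries labelled cKO the ratio lay at 3.18 to 4.57 for CamK, 4.73 to 6.04 for Grik and 2.75 to 3.95 for SST, so that every library labelled Grik cKO lay above every Grik WT library. This ratio was chosen after the values were seen and is given without a test. Its size depends on the length used. With the longest transcript as length, the CamK WT means were 3.83 CPM per kilobase for Grm4 and 1.74 for Grm8. On all exons they were 2.95 and 0.844. No correlation of the pair is given, because the libraries fall into clusters by population.

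**Figure D2:**
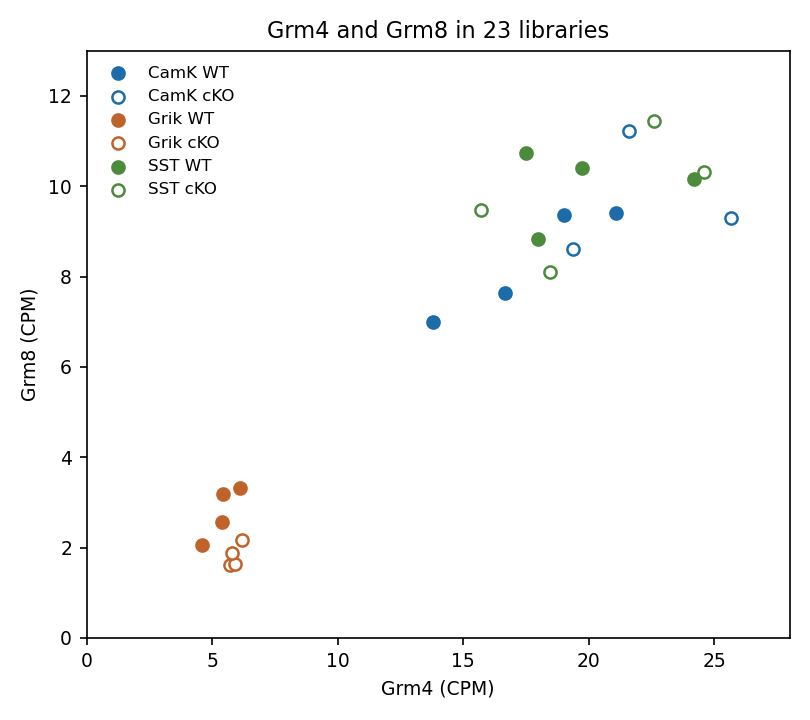
CPM of Grm8 against CPM of Grm4 in the 23 libraries, coloured by population, with filled points for WT and open points for cKO. All Grik libraries sit in the lower left, below 7 CPM of Grm4 and 4 CPM of Grm8, and CamK and SST libraries overlap in the upper right.

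Levels of different receptor genes can be compared only per length, and CPM were therefore divided by the length of all annotated exons in kilobases. On this scale Grm5 had the highest mean in each WT population, at 15.6 CPM per kilobase in CamK, 15.5 in Grik and 18.2 in SST. The runner-up changed with the population. It was Grm2 in CamK WT, at 12.5 CPM per kilobase, and Grm7 in Grik WT and SST WT, at 10.4 and 4.56. In CamK WT the order continued with Grm7 at 6.34, Grm4 at 2.95, Grm3 at 2.48 and Grm8 at 0.844 CPM per kilobase. Grm5 and Grm2 overlapped there in range, although Grm5 was above Grm2 in all 4 libraries, and Grm4 and Grm3 overlapped as well.

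In Grik WT, Grm7 was followed by Grm2 at 4.55, Grm3 at 0.923, Grm4 at 0.899 and Grm8 at 0.281 CPM per kilobase, and only the neighbours Grm3 and Grm4 overlapped. In SST WT the order of means was Grm7, Grm4 at 3.32, Grm2 at 1.26, Grm3 at 1.03 and Grm8 at 1.01 CPM per kilobase. The whole order held in 0 of the 4 SST WT libraries, and Grm3 was above Grm8 in just 1. Grm7 overlapped with Grm4 there, Grm2 with Grm3 and Grm3 with Grm8, while Grm2 did not overlap with Grm4. With the longest transcript as the length, Grm4 was above Grm3 in Grik WT, and Grm8 was above Grm2 and Grm3 in SST WT, so the order among these low genes depends on the length used.

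**Figure D3:**
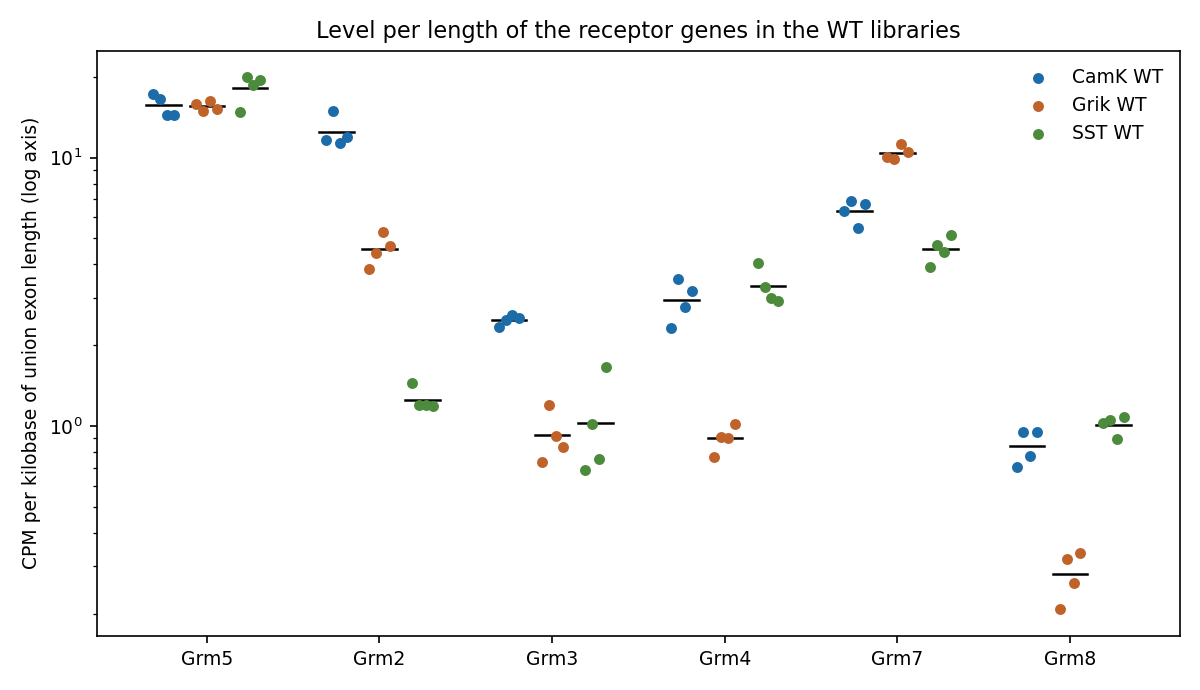
CPM per kilobase of exon (log axis) of the 6 receptor genes in the WT libraries of each population, with points for libraries and lines for means. Grm5 is at the top in every population, and the gene next to it is Grm2 in CamK and Grm7 in Grik and SST.

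As a share of the summed per-length level of the 6 genes, Grm5 took on average 38.5% for CamK WT, 47.7% for Grik WT and 61.8% for SST WT. Grm2 took 30.5, 13.9 and 4.33%, and Grm7 took 15.6, 32.0 and 15.5%. The remaining genes were smaller, with Grm4 at 7.24, 2.76 and 11.5%, Grm3 at 6.12, 2.83 and 3.45%, and Grm8 at 2.07, 0.864 and 3.47%. The sum itself was 40.7 ± 3.30 CPM per kilobase for CamK WT, 32.6 ± 1.58 for Grik WT and 29.4 ± 2.59 for SST WT (SD, n = 4 each). The shares therefore describe different mixtures of receptor transcripts, with Grm5 and Grm2 leading in CamK, Grm5 and Grm7 in Grik, and Grm5 alone in SST. They rest on the length of all exons, and the share of Grm8 is larger with the longest transcript as length. Its mean was then 1.74 rather than 0.844 CPM per kilobase in CamK WT, and 2.09 rather than 1.01 in SST WT.

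The next question was whether the receptor genes differed between libraries labelled cKO and WT within a population. By edgeR's quasi-likelihood test, 0 of 6 receptor genes passed an adjusted p of 0.05 in CamK, Grik or SST, where 0.0106% of all genes, or 2 genes, passed in each population. DESeq2 and limma-voom also called 0 of 6 in each. At an unadjusted p of 0.05, edgeR gave 1 of 6 in each population, against 7.05% of all genes in CamK, 4.88% in Grik and 5.85% in SST. No receptor gene was free of overlap between cKO and WT libraries in any population, where 6.75, 4.59 and 2.7% of all genes were.

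**Figure D4:**
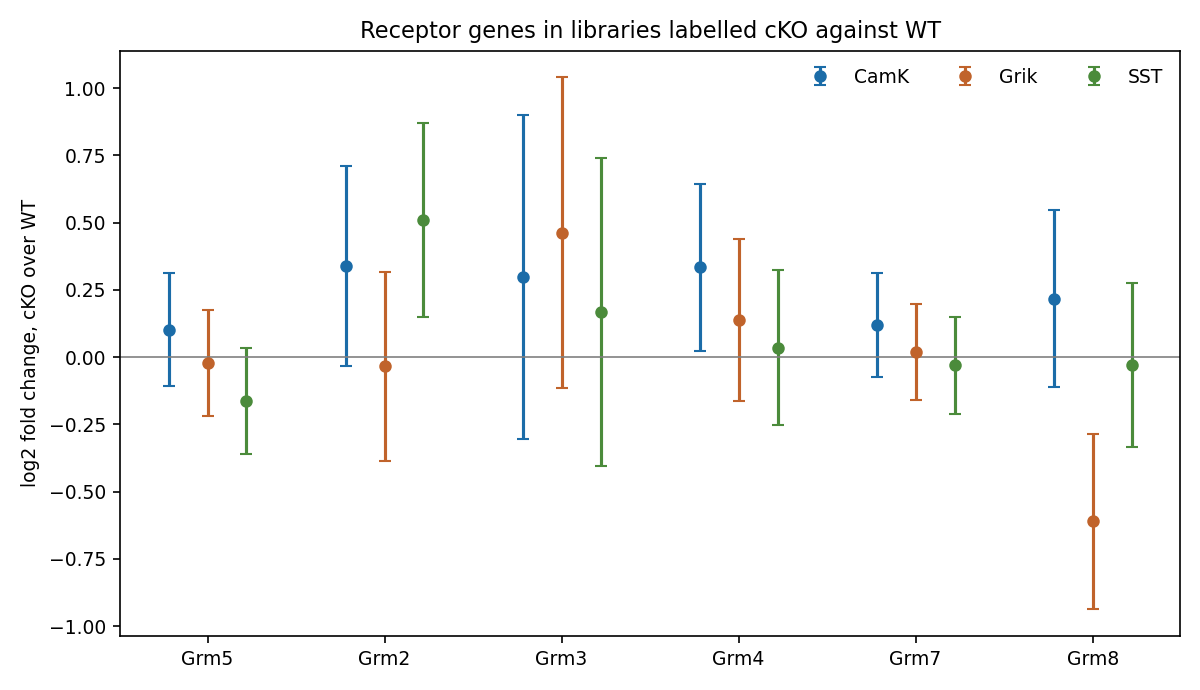
Log2 fold change of libraries labelled cKO against WT for each receptor gene and population, with 95% intervals from edgeR. All 6 estimates in CamK are above 0, Grm8 in Grik is at -0.61 and Grm2 in SST at 0.51, and no gene passed the adjusted threshold.

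In CamK the log2 fold changes of all 6 genes were above 0, with a median of 0.258, while the median of all genes tested was -0.00142. Grm4 had 25.7, 21.6 and 19.4 CPM in the libraries labelled cKO, with a mean of 22.2 ± 3.19 (SD, n = 3), against 13.8 to 21.1 in WT, so that the groups overlapped. Its log2 fold change was 0.33 (SE 0.15, adjusted p = 0.675 by edgeR), with a 95% interval from 0.02 to 0.64. Grm2 had 75.9, 66.4 and 89.0 CPM in the libraries labelled cKO, against 55.6 to 73.2 in WT. Its log2 fold change was 0.34 (SE 0.18, adjusted p = 0.733 by edgeR). The other 4 genes had log2 fold changes from 0.10 for Grm5 to 0.30 for Grm3. Several values rested on single libraries. Without CamK cKO replicate 5, Grm5 was 0.0016, Grm7 0.025 and Grm8 0.10, and without replicate 6 Grm2 was 0.22 and Grm3 0.16. Grm4 was 0.22 without replicate 4, and Grm5 and Grm7 were 0.066 and 0.063 without CamK WT replicates 5 and 4. Over all libraries left out in turn, the highest values were 0.45 for Grm2, 0.44 for Grm3, 0.44 for Grm4, 0.16 for Grm5, 0.18 for Grm7 and 0.30 for Grm8.

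The astrocyte markers also stood higher in the libraries labelled CamK cKO, where their sum was 113 to 136 CPM against 69.4 to 89.1 in CamK WT. All 6 had positive log2 fold changes there. The 4 oligodendrocyte markers summed to 203 to 254 CPM in these libraries against 138 to 205 in CamK WT, and all 4 log2 fold changes were positive. The 3 endothelial markers summed to 1.495 to 3.17 CPM against 0.656 to 1.06, again with all 3 positive. The 2 oligodendrocyte precursor markers were positive too, with sums of 1.56 to 3.69 CPM against 0.587 to 1.88. So were the 3 markers of other interneurons (Pvalb, Vip and Lamp5), at 38.9 to 65.9 CPM against 30.9 to 52.3. The 4 SST interneuron markers, at 74.7 to 136 CPM against 45.1 to 143, and the 3 CA2 markers were all positive. Lists of pyramidal, CA1, CA3, granule cell and microglia markers held both signs. No marker of these lists passed the adjusted threshold. Grm3, which astrocytes also make, had 9.59, 7.31 and 10.99 CPM in the libraries labelled CamK cKO. The part of RNA from these cell types in the CamK values was not tested.

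In Grik, Grm8 had 1.61, 1.62, 2.16 and 1.89 CPM in the libraries labelled cKO, with a mean of 1.82 ± 0.261 against 2.78 ± 0.582 in WT (SD, n = 4 each). The cKO library with 2.16 CPM was above the WT library with 2.06, and the other cKO libraries were below all WT libraries. The log2 fold change was -0.61 (SE 0.15, unadjusted p = 0.00059, adjusted p = 0.543 by edgeR), with a 95% interval from -0.94 to -0.29. Across the alternatives that kept all libraries, the adjusted p ranged from 0.0947 to 0.592. Counts were low, at 138 to 188 reads in the libraries labelled cKO and 180 to 284 in WT. Beside it, the 3 CA1 markers summed to 37.5 to 55.5 CPM in the libraries labelled Grik cKO against 44.9 to 62.2 in WT, and the 4 SST interneuron markers to 54.0 to 73.8 against 67.7 to 89.3. All 7 log2 fold changes were negative and none passed the threshold, and their part in the Grm8 value was not tested.

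Grm3 in Grik had 2.91, 3.97, 5.13 and 3.50 CPM in the libraries labelled cKO, with a log2 fold change of 0.46 (with an SE of 0.27, adjusted p = 0.992 by edgeR). It was 0.29 without Grik cKO replicate 3 and 0.73 with the replicate number as a block, and up to 0.61 without other libraries. Grm2, Grm4, Grm5 and Grm7 lay between -0.03 and 0.14. The 4 oligodendrocyte markers summed to 688, 919, 986 and 738 CPM in the same libraries, against 630 to 846 in WT, and the 2 precursor markers to 13.2, 18.9, 20.2 and 15.2, against 9.41 to 15.1. The 3 endothelial markers summed to 1.07 to 5.78 CPM, against 1.17 to 2.47. All of these markers had positive log2 fold changes. The 6 astrocyte markers summed to 73.5 to 103 CPM, against 73.9 to 99.1, with 4 positive and 2 negative. No marker of these lists passed the threshold, and their part in the Grm3 value was not tested.

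In SST, Grm2 had 7.67, 5.39, 9.38 and 12.5 CPM in the libraries labelled cKO, with a mean of 8.74 ± 3.01 against 6.14 ± 0.612 in WT (SD, n = 4 each). The lowest cKO library was below all WT libraries, and the other 3 were above them. The log2 fold change was 0.51 (SE 0.17, unadjusted p = 0.0071, adjusted p = 0.833 by edgeR), with a 95% interval from 0.15 to 0.87. It was 0.28 without SST cKO replicate 7 (adjusted p = 1 by edgeR) and 0.68 without SST cKO replicate 4 (adjusted p = 0.187 by edgeR). The pyramidal markers Slc17a7, Nrgn and Neurod6 were highest of the 8 SST libraries in SST cKO replicate 7, at 194, 243 and 35.6 CPM. Camk2a, the other pyramidal marker, had 787 CPM there against up to 792 in SST WT. Over the 4 pyramidal markers, the SST sums were 848 to 1260 CPM in libraries labelled cKO and 874 to 1019 in WT, 3 of the 4 log2 fold changes were positive, and none passed the threshold. The 4 oligodendrocyte markers summed to 371, 218, 796 and 910 CPM in the libraries labelled SST cKO and to 252, 561, 335 and 504 in SST WT, in the order of libraries used for Grm2. All 4 had positive log2 fold changes, and none passed the threshold. All 6 astrocyte markers were positive as well without passing it, with sums of 228 to 284 CPM against 184 to 265. The 3 CA1, 3 CA3 and 4 microglia markers were likewise all positive and not called, with sums of 59.1 to 83.8 against 54.0 to 83.2 CPM, 25.8 to 39.1 against 29.9 to 34.5, and 6.11 to 18.4 against 5.66 to 7.13. The 3 markers of other interneurons were all positive too and not called, with sums of 133 to 213 CPM against 122 to 185. Replicate 7 had the highest microglia sum, 18.4 CPM, and the highest sum of other interneuron markers, 213 CPM, of the 8 SST libraries. It also had the lowest SST interneuron sum of the 8, 4744 CPM. The part of RNA from these cell types in the Grm2 value was not tested. The other 5 receptor genes in SST had log2 fold changes from -0.16 for Grm5 to 0.17 for Grm3.

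Differences of the cKO effect between populations were tested directly. For CamK minus Grik, CamK minus SST and Grik minus SST, edgeR called 0 of 6 receptor genes, and 0.00531, 0 and 0.0106% of all genes. DESeq2 and limma-voom also called 0 of 6 in each. At an unadjusted p of 0.05, edgeR gave 1, 0 and 2 receptor genes, against 6.5, 7.85 and 3.86% of all genes. The Grm8 effect was 0.83 higher on the log2 scale in CamK than in Grik (SE 0.22, adjusted p = 0.570 by edgeR), with a 95% interval from 0.37 to 1.29. Its effect in Grik minus that in SST was -0.58 (SE 0.21, adjusted p = 0.9999 by edgeR), and that of Grm2 was -0.54 (SE 0.24, adjusted p = 0.9999 by edgeR).

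The receptors were then set beside 28 genes that bind them, carry their signals or switch them off. All 28 were tested. In CamK WT against SST WT, 19 were higher and 7 lower, with a median log2 fold change of 0.327. In Grik WT against SST WT, 17 were higher and 7 lower, with a median of 0.477. Between CamK WT and Grik WT, 9 were higher and 9 lower in CamK, with a median of -0.0273. Of the genes named below, Grk3 (log2 fold change -0.25) lost its call in that comparison (adjusted p = 0.0534 to 0.187 by edgeR, log2 fold change -0.26 to -0.18) without any 1 of 11 libraries, namely CamK WT 4 or 5, any of the 8 Grik libraries or SST WT 2. Kcnj6 (-0.26) lost it (adjusted p = 0.0512 to 0.0585 by edgeR, log2 fold change -0.21) without CamK WT 5 or Grik WT 5. The shares of all genes passing in these comparisons are those given above for the receptors, and the medians of all genes were -0.0206, -0.0263 and 0.00781. In the cKO comparisons edgeR called 0 of 28 in each population, with 3, 1 and 3 genes at an unadjusted p of 0.05 in CamK, Grik and SST, where 7.05, 4.88 and 5.85% of all genes reached it. DESeq2 and limma-voom also called 0 of 28 in each.

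**Figure D5:**
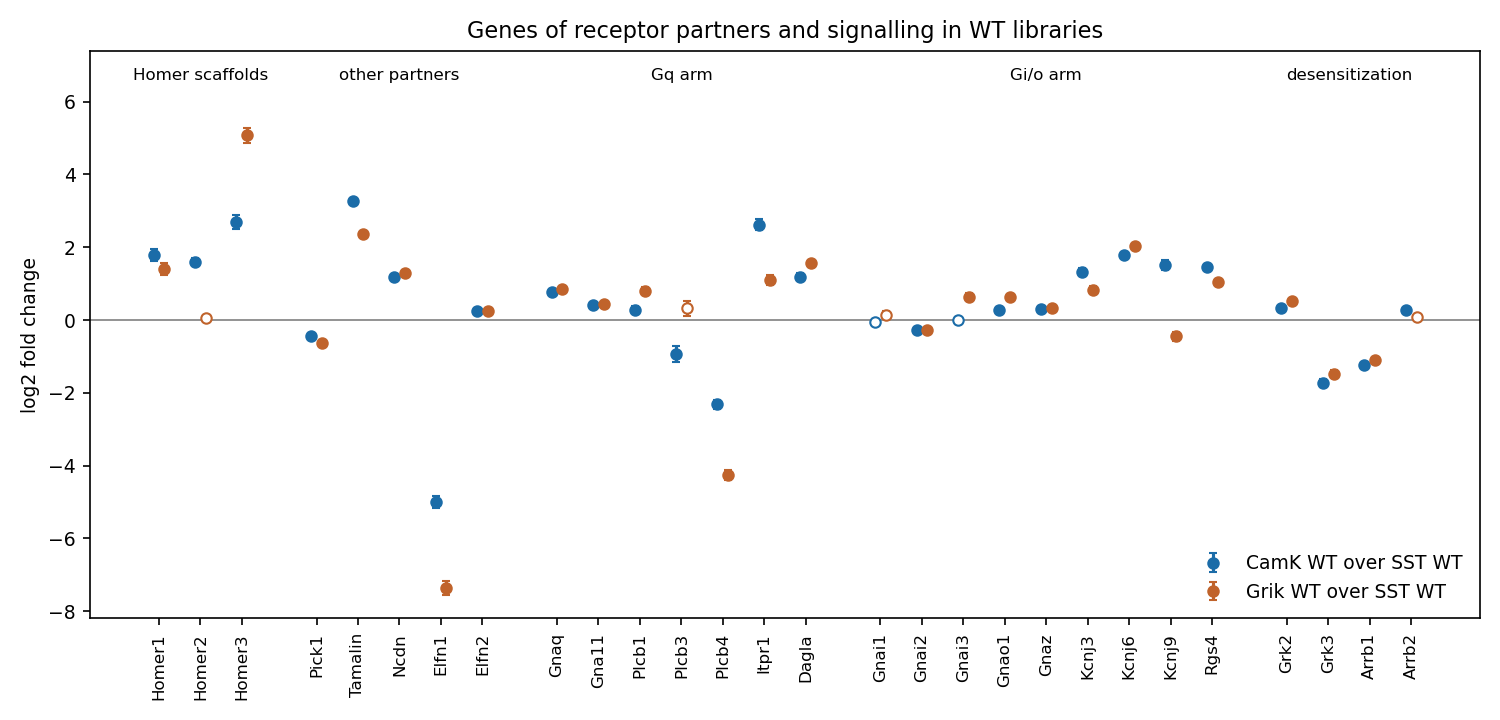
Log2 fold change of CamK WT and of Grik WT over SST WT for the 28 partner and signalling genes, with SE bars and filled points for an edgeR adjusted p under 0.05. Homer3 is far above 0 and Elfn1 far below 0 in both comparisons.

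Homer proteins are scaffolds that bind the tail of group I receptors and link them to calcium stores. All 3 Homer genes were higher in CamK WT than in SST WT, and 2 of 3 were higher in Grik WT. Of all genes tested, 29.5 and 28.1% were higher in these comparisons. The level of Homer3 was 237 ± 20.7 CPM in Grik WT, with 45.2 ± 7.18 for CamK WT and 7.01 ± 1.06 for SST WT (SD, n = 4 each). It was 5.08 higher on the log2 scale in Grik than in SST (SE 0.20, adjusted p = 3.93e-15 by edgeR) and 2.69 higher in CamK than in SST (SE 0.19, adjusted p = 4.06e-11 by edgeR). Grm5 itself ran the other way by a small amount in both comparisons.

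Among 5 other binding partners, 3 were higher and 2 lower in each excitatory population than in SST. In either direction, 60.1% of all genes passed for CamK and 57.3% for Grik. Elfn1, an adhesion protein of the postsynaptic side that binds group III receptors across the synapse, was high in SST WT at 252 ± 28.2 CPM, against 7.81 ± 1.45 for CamK WT and 1.52 ± 0.323 for Grik WT (SD, n = 4 each). Its log2 fold change was -5.01 in CamK against SST (SE 0.16, adjusted p = 1.80e-17 by edgeR) and -7.37 in Grik against SST (SE 0.18, adjusted p = 3.02e-19 by edgeR). Elfn1 was thus lowest in Grik WT, the population with the highest Grm7.

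Of 7 genes of the Gq arm, 5 were higher and 2 lower in CamK WT than in SST WT, and 5 were higher and 1 lower in Grik WT. Over all genes, 60.1 and 57.3% passed in these comparisons. Itpr1, a calcium release channel gated by inositol trisphosphate, had 516 ± 45.3 CPM in CamK WT and 83.7 ± 11.5 in SST WT (SD, n = 4 each), a log2 fold change of 2.62 (with an SE of 0.15, adjusted p = 3.45e-13 by edgeR). Plcb4, a phospholipase C, was lower in Grik WT at 5.03 ± 0.555 CPM than in SST WT at 95.6 ± 7.09 (SD, n = 4 each), a log2 fold change of -4.25 (with an SE of 0.14, adjusted p = 4.77e-18 by edgeR).

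Of 9 genes of the Gi/o arm, 6 were higher and 1 lower in CamK WT than in SST WT, and 6 were higher and 2 lower in Grik WT. The shares of all genes passing were again 60.1 and 57.3%, as they are for the desensitizing genes below. Kcnj6, a subunit of potassium channels opened by G proteins, had 38.4 ± 3.004 CPM for CamK WT, 45.9 ± 2.98 for Grik WT and 11.2 ± 1.29 for SST WT (SD, n = 4 each). Its log2 fold change against SST was 1.78 in CamK (SE 0.08, adjusted p = 4.04e-15 by edgeR) and 2.04 in Grik (SE 0.08, adjusted p = 2.84e-16 by edgeR). Among 4 genes that desensitize receptors, 2 were higher and 2 lower in CamK WT, and 1 was higher and 2 lower in Grik WT. Grk3, a kinase that phosphorylates active receptors, was highest in SST WT at 160.2 ± 16.9 CPM, with 48.3 ± 7.59 for CamK WT and 57.5 ± 1.46 for Grik WT (SD, n = 4 each). Its log2 fold change was -1.73 in CamK (SE 0.10, adjusted p = 1.94e-13 by edgeR) and -1.48 in Grik (SE 0.10, adjusted p = 3.02e-12 by edgeR).

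For each receptor gene, the 3 genes with the most similar pattern were found by Pearson correlation of log2 CPM over the 23 libraries, among 12959 genes with a mean of at least 1 CPM. These libraries cluster by population, so the coefficients mainly describe which population is high. Grm2 was most like Vgll4 (r = 0.985), Ramp1 (0.981) and Ier5 (0.981). Those of Grm3 included Rxfp1 (0.915) and 9130024F11Rik (0.910). For Grm4 the closest were Cacng3 (0.987), Mtcl1 (0.980) and Cdh22 (0.977), and for Grm8 they were Sowahb (0.975), Lemd1 (0.972) and Elmo1 (0.971). Grm7 was most like Flrt3 (0.989), Kcnt2 (0.983) and Tgfb2 (0.982). Grm5, the gene with the least difference between populations, had the lowest coefficients, with Cask (0.848), Dync1h1 (0.810) and Pcdh17 (0.784).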

How the data were processed

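The authors deposited counts of reads per Ensembl gene as whole numbers. Trimmomatic, STAR and the GRCm38 build are named in the submitters' processing notes. Not given in the sources used here were versions, the annotation release and the strand setting. Of 45706 gene IDs, 45143 matched GENCODE M21, from which symbols, positions and exon lengths were taken. Rows that name no gene held 12.4 to 18.4% of reads and were left out. For 3 columns spelled differently from the titles, just 1 title had the same population, genotype and number. All pairs of replicates differed beyond counting noise (chi-square per degree of freedom 8.79 to 215).

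The filterByExpr function left 18823 genes, which were scaled by TMM and fitted over all 23 libraries with edgeR 4.0.16 in R 4.3.3 (robust quasi-likelihood, 17 residual degrees of freedom). The Benjamini-Hochberg adjustment ran over all genes in each of 9 comparisons. CPM were computed here. The function was tested on simulated counts. The alternatives tried were DESeq2 1.42.0, omission of the low-count filter, relative log expression scaling, limma-voom 3.58.1 with sample weights, the compared populations alone, the replicate number as a block, leaving out each library, and the longest transcript as gene length. Promoters were read from RefSeq and searched with Python 3.11.15, taking the window nearest the GENCODE start.

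The receptor genes and the lists were chosen with earlier results of these data known. The text names the 6 receptor genes, the gene of each signalling list with the largest absolute change past the threshold in each comparison with SST, and the 3 genes most correlated with each receptor gene, of which 1 is not reported here. Splicing and protein were not analysed here.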

Additional observations from a re-analysis of the deposited data

Results flagged for a closer look

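Grm2 in CamK WT replicate 3 was 73.2 CPM, apart from its replicates at 55.6 to 58.5 CPM. Grm2 in SST WT replicate 1 was 7.06 CPM, apart from its replicates at 5.81 to 5.86 CPM. Each value's gap to its nearest neighbour exceeded Dixon's limit for 4 samples. Chance flags about 1 in 20 groups, which is 1.5 of the 30 gene and group pairs tested, and 2 were found.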

How the results depend on the processing

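No receptor gene was called in any cKO comparison or difference of cKO effects under any alternative run. Between WT populations, 5 receptor genes were called in CamK against Grik without each library in turn, 3 to 4 in CamK against SST and 4 to 5 in Grik against SST. The changes were the Grm5 calls: with CamK against SST, the edgeR adjusted p was 0.0678 without the filter on low counts and 0.0810 in the fit of those populations alone, and limma-voom gave 0.0533, and with Grik against SST it was 0.0567 without the filter. Among the signalling genes named, Grk3 in CamK against Grik had 0.0538 without the filter. The cause was not tested.

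Counts of called genes over the whole table were small in the cKO comparisons and moved with the tool. In CamK the count of 2 became 16 with DESeq2, 6 with limma-voom, 1 with the compared population alone, 4 with the replicate block, and 1 to 4 without each library. In Grik the count of 2 became 14 with DESeq2, 37 with limma-voom, 5 with the population alone and 1 to 9 without each library. In SST the count of 2 became 1 without the filter, 11 with DESeq2, 0 with limma-voom, 0 with the population alone and 0 to 3 without each library. For differences, CamK minus Grik went from 1 to 11 with DESeq2, 0 with the block and 0 to 2 without each library, CamK minus SST from 0 to 14 with DESeq2, 1 with limma-voom and 0 to 1 without each library, and Grik minus SST from 2 to 4 with DESeq2. The cause was not tested.

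Small log2 fold changes turned sign. With limma-voom, cKO against WT gave 0.0059 for Grm5 in Grik and 0.060 for Grm8 in SST, and WT Grik against SST gave 0.092 for Grm3. With the replicate block, cKO against WT gave 0.025 for Grm5 in Grik and -0.36 for Grm3 in SST, Grik minus SST gave -0.045 for Grm4, and WT CamK against Grik gave -0.013 for Grm5. Same-numbered WT and cKO libraries of a population did not deviate together (correlation -0.0999 to 0.129 over 6 pairs), so the block was not used for pairing. Without each library, cKO against WT in Grik ranged from -0.11 to 0.039 for Grm2, -0.068 to 0.021 for Grm5 and -0.0056 to 0.054 for Grm7, and in SST from -0.20 to 0.50 for Grm3, -0.070 to 0.14 for Grm4, -0.096 to 0.034 for Grm7 and -0.11 to 0.053 for Grm8. CamK minus Grik ranged from -0.32 to 0.016 for Grm3, CamK minus SST from -0.34 to 0.054 for Grm2 and -0.20 to 0.49 for Grm3, and Grik minus SST from -0.036 to 0.66 for Grm3, -0.0083 to 0.21 for Grm4 and -0.014 to 0.12 for Grm7. Between WT populations, CamK against Grik ranged from -0.044 to 0.046 for Grm5 and Grik against SST from -0.31 to 0.17 for Grm3. None of these values passed the threshold in edgeR. The lowest read counts were those of Grm8 and Grm3, at 138 and 196 reads in their lowest libraries, and replicates differed beyond counting noise.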
